A study of Mus musculus with 4 samples.

Results

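The 10 genes described here encode enzymes that activate long-chain fatty acids (Acsl1, Acsl3, Acsl4 and Acsl5), move the acyl chains into mitochondria (Cpt1a and Cpt2) and shorten them there (Acadl, Acadm, Hadh and Acaa2). They were taken by gene name from lists of N6-methyladenosine (m6A) sites in mRNA, and they account for 10 of the 5934 genes named in these lists. They carried 19 of the 10514 sites listed in wild type and 15 of the 3937 sites listed after deletion of the methyltransferase gene Mettl3. The genes were chosen by the presence of their sites in these same lists. That all 10 were listed in both genotypes is therefore a property of the choice and is not a finding. Of all genes in the WT list 37.9% were also in the KO list, and of all genes in the KO list 69.4% were also in the WT list.

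Pancreata were dissected from mice before birth, at E15.5 (embryonic day). The group named WT was wild type. The group named KO lacked Mettl3 in Pdx1-positive pancreatic progenitor cells, so cells outside that lineage were not deleted by design. RNA was cut to about 200 nt, and for each genotype 1 library was made from fragments captured with an m6A antibody (MeRIP) and 1 from fragments without capture (input). The labels name the material as pancreatic cells, and neither the strain nor the number of animals per library is stated in the sources used here. With 1 library of each kind per genotype there is no spread between replicates, and no test between genotypes was run. Read depth is unknown, because the lists hold no read counts.

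A fatty acid entering the cell is first joined to coenzyme A by a long-chain acyl-CoA synthetase. Carnitine palmitoyltransferase 1 on the outer mitochondrial membrane passes the chain to carnitine, and carnitine palmitoyltransferase 2 on the inner membrane returns it to coenzyme A. Each turn of beta-oxidation then takes a dehydrogenase, a hydratase, a second dehydrogenase and a thiolase, and releases acetyl-CoA. The m6A mark is written on mRNA by a complex whose catalytic subunit is METTL3, often at a GGAC core, and it is known for being dense near stop codons and in long exons.

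Most WT and KO sites of these genes lay at different places, as did most sites over all genes. Of the 19 WT sites 3 were overlapped by a KO site, by at least 1 bp, and of the 15 KO sites the same 3 intervals were overlapped by a WT site. Over all genes a KO site overlapped 12.2% of WT sites, and a WT site overlapped 32.6% of KO sites. Such an overlap occurred in 3 of the 10 genes, Acadl, Hadh and Acaa2, all of which encode enzymes of the oxidation steps. Over all 1929 genes listed in both genotypes 54.1% had an overlapping pair. The other 7 genes were all the activation and carnitine transfer genes and Acadm, which also encodes an enzyme of the oxidation steps. In these 7 genes the nearest WT and KO sites were 1656 bp to 60557 bp apart in the genome, with a median of 7.97 kb. The median over the 885 genes that likewise had sites in both lists and no overlapping pair was 8.27 kb. Distances are genomic, introns included, and the tables used here do not annotate exons or untranslated regions.

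**Figure D1:**
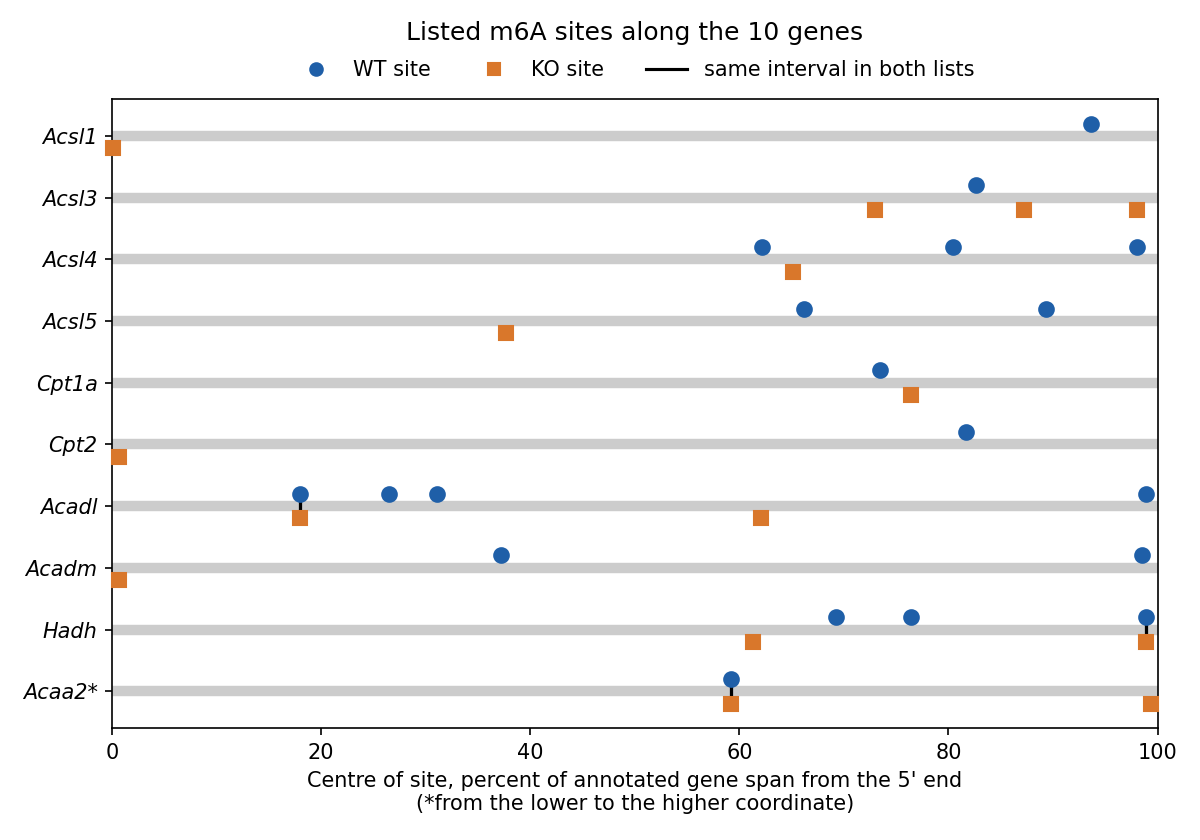
Positions of all sites of the 10 genes. The horizontal axis is the centre of a site in percent of the annotated gene span from the 5′ end (for Acaa2, marked with an asterisk, from the lower to the higher coordinate), circles are WT sites, squares are KO sites, and a black line joins an interval listed in both genotypes. Lines appear in Acadl, Hadh and Acaa2, and the KO squares of Acsl1, Cpt2 and Acadm lie at the left edge.

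The KO sites of 3 genes lay at the start of the gene, where none of these genes had a WT site. In Acsl1 the KO site began exactly at the annotated gene start, in Cpt2 it began 7 bp inside it, and in Acadm 47 bp inside it. Sites within 300 bp of the annotated 5′ end made up 3 of the 13 KO sites and 0 of the 18 WT sites whose gene has a known strand. Over all genes such sites made up 10.3% of KO sites and 6.64% of WT sites. At the opposite end, 4 of the 18 WT sites ended exactly at the annotated 3′ end, in Acadl, Hadh, Acadm and Acsl4, and 1 of the 13 KO sites did, in Hadh. Within 300 bp of the 3′ end the counts for these genes were the same, 4 of 18 and 1 of 13. The share of all sites within that distance was 13.4% in WT and 10.6% in KO. The 300 bp distance was chosen after the positions had been seen.

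The first 30 bases of the KO site are shown for Cpt2 and Acsl1, because in these genes the single KO site lay at the gene start and the single WT site far downstream. They are RefSeq letters on GRCm38.p6, the same assembly as mm10, written 5′ to 3′ on the gene's strand with GGAC in capitals.
Acsl1 (chr8:46471037-46471066, plus strand): GGACggggcggggcggcgtggcacggcacg
Cpt2 (chr4:107923553-107923582, minus strand): ggagttgaactGGACgttaagtctctacgg
Each stretch held GGAC once, and neither held GGACT, a longer form that contains it. Both forms were searched on the gene's strand only. Of 32817 annotated gene starts with letters in the table, 11.2% had GGAC in the first 30 bases of the gene. The Acsl1 stretch is this window, whereas the Cpt2 stretch begins 7 bp further into the gene. In the first 50 bases 18.8% had GGAC and 5.76% had GGACT. Acsl1, Cpt2 and Acadm each had GGAC in the first 50 bases of the gene, and of these only Acadm had GGACT there. The percentages are shares of gene starts, and the share over listed sites could not be given. A match is a description of the letters and does not place a methylated base. The Acadm site reached only 3 bases into the letters at hand, so none is printed for it.

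The values given below are the authors' own for each peak. Fold enrichment is MeRIP over input at the peak as the peak caller gave it, and the score is 10 times the negative log10 of the p that the caller reported, so that 50 stands for a p of 1e-05. Within the WT list the 19 sites had fold enrichments from 4.60 to 13.55 with a median of 7.33, where all WT sites had a median of 7.91 and quartiles of 6.49 and 9.54. The 15 KO sites ran from 2.83 to 8.01 with a median of 5.75, where all KO sites had a median of 6.20 and quartiles of 5.16 and 7.41. Above the median of their own list were 8 of the 19 WT sites and 6 of the 15 KO sites. The false discovery rate of the WT sites ran from 9.81% to 39.01% and was at most 20% for 17 of them. For the KO sites it ran from 46.26% to 63.37%, and no site of the KO list is below 45.92%. The rate does not fall steadily as the score rises. Among the 19 WT sites it was 10.69% at the lowest score (51.35), 9.81% at a score of 68.01 and 39.01% at the highest (275.63). The KO sites with the highest scores, in Acaa2 (143.9) and Acsl3 (105.77), had the highest rates of the 15, 63.37% and 53.12%. The site nearest to the lowest score listed was a WT site of Acsl4 with 51.35.

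**Figure D2:**
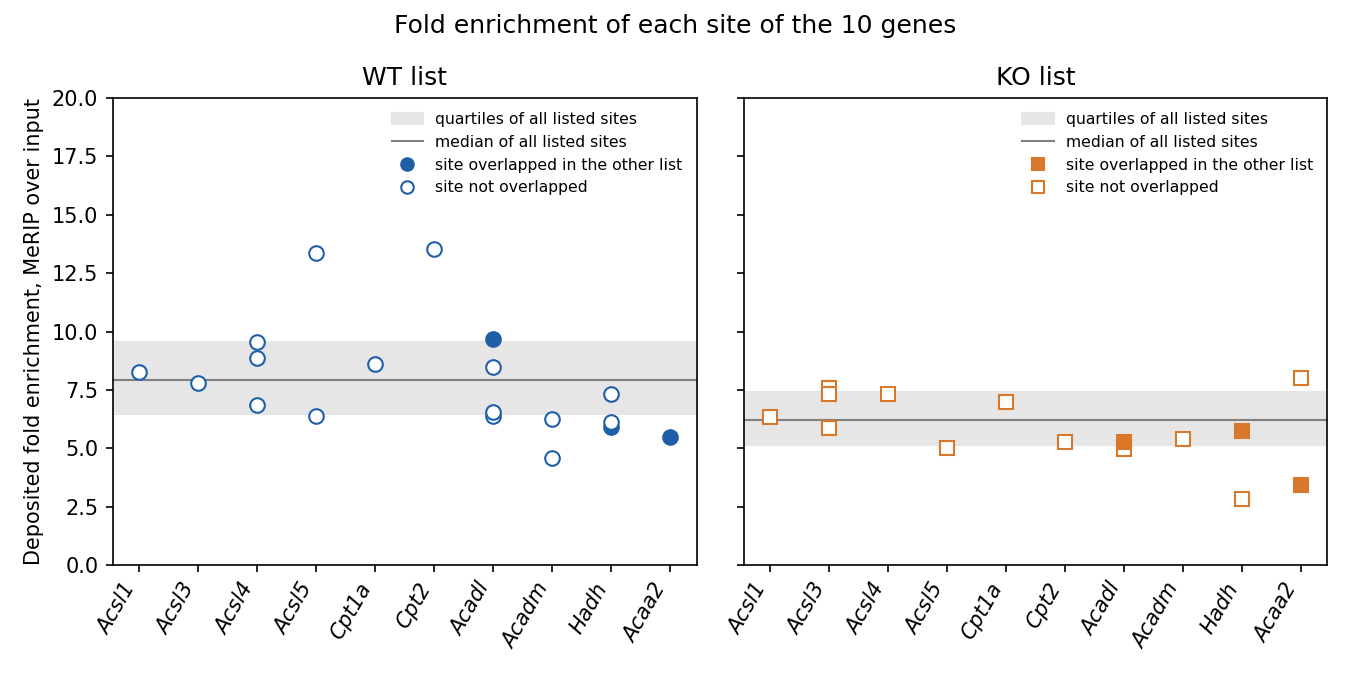
Fold enrichment of every site of the 10 genes, WT list on the left and KO list on the right. The vertical axis is the deposited ratio of MeRIP over input, filled symbols are sites overlapped in the other genotype, the line is the median of all sites of that list and the band its quartiles. In WT the sites of Cpt2 (13.55) and Acsl5 (13.38) stand highest, single sites of Acadl (9.69) and Acsl4 (9.57) lie just above the band, and in KO the lowest sites are those of Hadh (2.83) and Acaa2 (3.44).

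Acyl-CoA synthetases open the pathway. ACSL1 is the main form in liver and fat tissue, where it feeds both oxidation and triglyceride synthesis. Its gene, on chromosome 8, spans 65.0 kb and had 1 site in each genotype. The WT site lay at 46531788 to 46531931, at 93.6% of the span, with a fold enrichment of 8.28 and a false discovery rate of 9.81%. The KO site lay at 46471037 to 46471230, at the gene start, with a fold enrichment of 6.36 and a false discovery rate of 46.91%. They were 60.56 kb apart, which put them at opposite ends of the gene. An annotated noncoding gene, Gm31050, overlaps the KO site, and without the strand of the reads the sites of Acsl1 and Gm31050 cannot be told apart there.

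ACSL3 is found on the endoplasmic reticulum and on lipid droplets, where it serves lipid synthesis. Acsl3, on chromosome 1, was listed at 1 place in WT and at 3 in KO, and with Acaa2 it was 1 of 2 genes with more KO than WT sites. Among all genes listed in both genotypes 9.54% had more KO than WT sites. The WT site (78698996 to 78699168) had a fold enrichment of 7.78 and a score of 54.68, a score above that of 9.78% of WT sites. The KO sites lay on both sides of it, at 78694196 to 78694346 with a fold enrichment of 7.59, at 78701269 to 78701460 with 5.87, and at 78706258 to 78707184 with 7.32. The last of them ended 559 bp before the annotated 3′ end. The nearest KO site was 2100 bp from the WT site, so the WT site stood between KO sites in the 3′ part of the gene without touching them.

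ACSL4 prefers arachidonic acid and other polyunsaturated chains and is known for making membranes prone to lipid peroxidation. Its gene on chromosome X had 3 WT sites and 1 KO site. The widest interval of any of the 10 genes was its WT site at 142317993 to 142320834, 2842 bp that ended exactly at the 3′ end of the gene, with a fold enrichment of 8.85 and a score above that of 93.6% of WT sites. The other WT sites were at 142332192 to 142332383 (fold enrichment 9.57) and at 142345428 to 142345566 (6.85). The KO site at 142343307 to 142343457 had a fold enrichment of 7.34 and lay between them, 1970 bp from the nearest WT site. In KO no site was listed at the 3′ end, where the WT list had its highest score in this gene.

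ACSL5 is found on mitochondria and is abundant in gut. Acsl5, on chromosome 19, had 2 WT sites, at 55281450 to 55281501 (fold enrichment 13.38) and at 55291773 to 55291889 (6.40). The first of these is only 52 bp wide, the narrowest of the WT sites of these genes, and its fold enrichment was above that of 96.6% of WT sites. Its KO site (55268644 to 55268828, fold enrichment 5.0) lay 12621 bp upstream of the nearest WT site, at 37.7% of the span against 66.2% and 89.3% for the WT sites. The noncoding gene Gm31595 overlaps this KO interval, and their reads cannot be told apart without strand.

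Carnitine transfer is the entry step into mitochondria. CPT1A, the liver form of carnitine palmitoyltransferase 1, is the step that malonyl-CoA inhibits. Cpt1a, on chromosome 19, had its WT site at 3368855 to 3369050 (fold enrichment 8.62) and its KO site at 3370707 to 3370895 (6.98). These were the closest sites that did not overlap in the 10 genes, 1656 bp apart, at 73.5% and 76.4% of a gene of 63.4 kb. Their scores, 79.71 and 77.49, stood above 45.4% of the WT list and 62.6% of the KO list.

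CPT2 completes the transfer inside the inner membrane. Cpt2, on chromosome 4, held the site with the highest fold enrichment and the highest score among the 10 genes, a WT interval of 1305 bp at 107906921 to 107908225 (fold enrichment 13.55, score 275.63). Its score was above that of 95.6% of WT sites, and its false discovery rate was 39.01%, the highest of the 19 WT sites. The KO list had no site there. It had 1 of 268 bp at 107923315 to 107923582, at the gene start, with a fold enrichment of 5.26 and a score of 62.94. The WT site was at 81.7% of the span and the KO site at 0.7%.

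Inside the mitochondrion the first dehydrogenases differ in the chain length they accept. ACADL acts on long and branched chains. Acadl, on chromosome 1, had the most sites of the 10 genes, 4 in WT and 2 in KO. The interval at 66857399 to 66857554 was listed in both and had fold enrichments of 9.69 (WT) and 5.29 (KO). It was the strongest Acadl site of each list by fold enrichment and by score. The WT sites at 66853127 to 66853291 (6.39), 66854624 to 66854761 (6.57) and 66830839 to 66831527 (8.46), given with their fold enrichment, had no KO partner. The last of these ended at the 3′ end of the gene. A KO site at 66843081 to 66843182 (4.99) lay 9.94 kb from the nearest WT site, near the middle of the gene. Another 26 genes had the same 4 WT sites, 2 KO sites and 1 overlapping pair, and those closest in best WT fold enrichment were Mrpl13 (9.59), Pdia4 (9.81) and Ap3b1 (9.85).

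ACADM, the medium-chain dehydrogenase, is the enzyme lost in the most common inherited defect of beta-oxidation in people. Acadm, on chromosome 3, had WT sites at 153922353 to 153923002 (fold enrichment 4.60) and at 153936295 to 153936425 (6.26). The first ended at the 3′ end of the gene, and its fold enrichment was above that of only 2.86% of WT sites although its score of 99.89 was above that of 62.1%. The KO site at 153944396 to 153944596 (5.40) had a score of 54.96, above that of 17.3% of KO sites, and lay 47 bp inside the gene start. No WT and KO sites of Acadm were closer than 7970 bp.

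HADH, the short-chain 3-hydroxyacyl-CoA dehydrogenase, takes the third step and is also known in beta cells, where its loss in people causes excess insulin secretion. Hadh, on chromosome 3, had 3 WT and 2 KO sites. The interval of 869 bp at 131233419 to 131234287, which ended at the 3′ end of the gene, was identical in WT and KO and had fold enrichments of 5.92 and 5.75. Only WT had sites at 131242516 to 131242605 (6.12) and 131245101 to 131245587 (7.33), and only KO had a site at 131248220 to 131248573 (2.83). That KO site had the lowest fold enrichment of the 34 sites, above that of 0.203% of KO sites, and stood 2632 bp from the nearest WT site.

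ACAA2, the mitochondrial thiolase, releases acetyl-CoA at the end of each turn. Acaa2, on chromosome 18, shared its WT site at 74795131 to 74795278 with KO, where the fold enrichments were 5.50 (WT) and 3.44 (KO). A second KO site at 74805855 to 74806207 ended at the annotated end of the gene with the higher coordinate and had no WT partner. It had the highest fold enrichment, 8.01, and the highest score, 143.9, of the 15 KO sites, and also the highest false discovery rate, 63.37%. The shared intervals of Acadl, Hadh and Acaa2 each had identical ends in WT and KO, as did 79.1% of the 1289 overlapping pairs over all genes. Whether such ends are those of a peak or of an annotated block is not stated in the labels or headers, so a shared interval does not place the mark within it. The widths, gaps and distances to gene ends given here are likewise those of the listed intervals and need not be those of the peaks.

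Position along the gene was summarised for the sites whose gene has a strand. The median centre was at 78.4% of the span for 18 WT sites and at 62.1% for 13 KO sites. Over all genes it was at 65.7% for 8287 WT sites and at 61.1% for 3008 KO sites. In the 5′ 50% of the span lay 4 of the 18 WT sites and 5 of the 13 KO sites of the fatty acid genes, where the shares of all sites were 35.2% and 40.6%. These are few sites, several share a gene, and no test was made of the difference. Peak names bear on how an unlisted place can be read. They are numbered along each chromosome and reach 94812 in WT and 99502 in KO, so the 10514 and 3937 listed sites are 11.1% and 3.96% of the numbers reached. Between the sites of the 5 genes with several WT sites 22 numbers were skipped, and between those of the 4 genes with several KO sites 11. If each number stands for a called peak, peaks that were not listed lay among these sites, at positions unknown here, and a place listed in only 1 genotype cannot be read as unmethylated in the other.

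**Figure D3:**
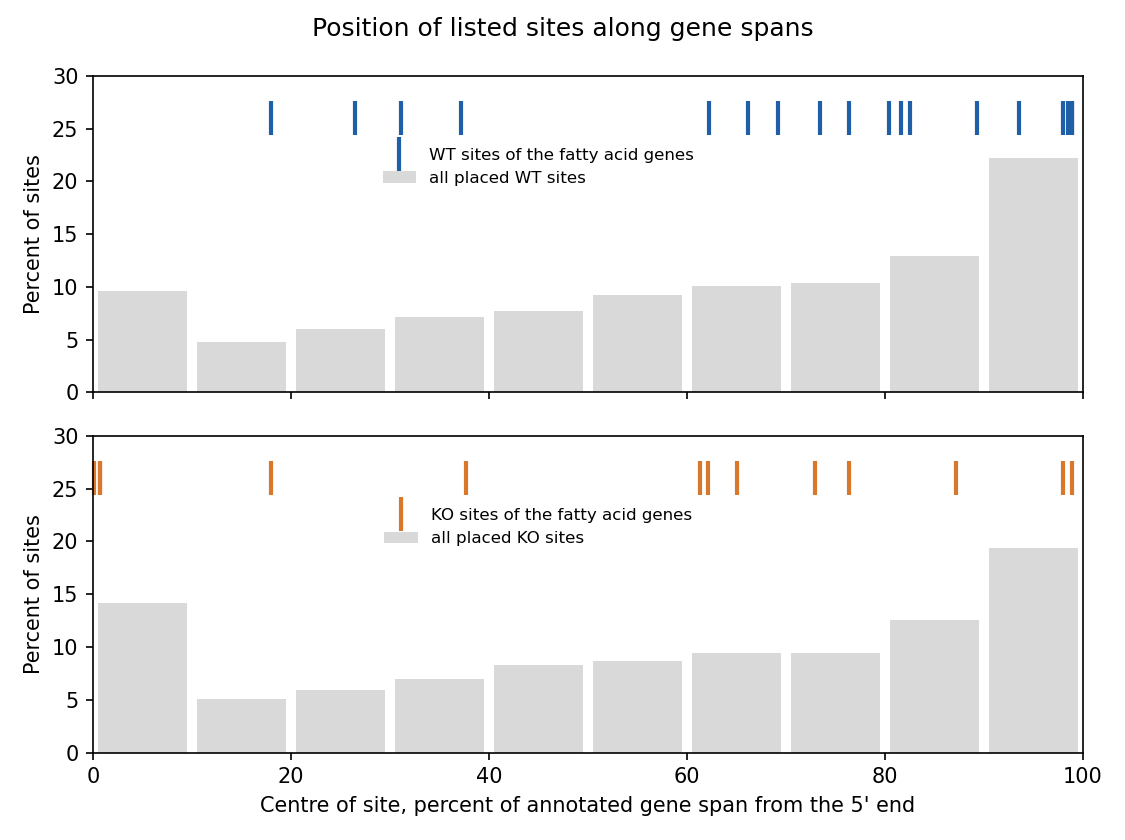
Position along the gene of all placed sites (grey bars, percent of sites in each 10% of the annotated gene span) and of the sites of the fatty acid genes (coloured ticks), WT above and KO below, from the 5′ end at 0 to the 3′ end at 100. The bars are highest in the last 10% of the span in both lists (22.2% of WT and 19.4% of KO sites), and 3 KO ticks and no WT tick lie at the far left.

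The rest of fatty acid metabolism was described by 8 lists with 100 genes, none of them among the 10. The WT list named 28 of these 100 genes, where it named 22.6% of 21900 annotated protein-coding genes. Of the 28 genes the KO list named 10, or 35.7%. That share is near the 37.9% of all genes in the WT list. A further 18 genes were listed in WT only, 5 in KO only and 67 in neither. The set that the authors' annotation calls fatty acid degradation holds all 10 genes described above, and without them 2 of its 8 genes in the WT list, Hadha among them, were in the KO list. Fatty acid metabolism, a broader annotated set, also holds all 10, and PPAR signalling, a different set, holds 8 of them. Without these members the counts were 5 of 11 for fatty acid metabolism and 4 of 6 for PPAR signalling. The sets share genes, and they lie on both sides of the 37.9%.

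**Figure D4:**
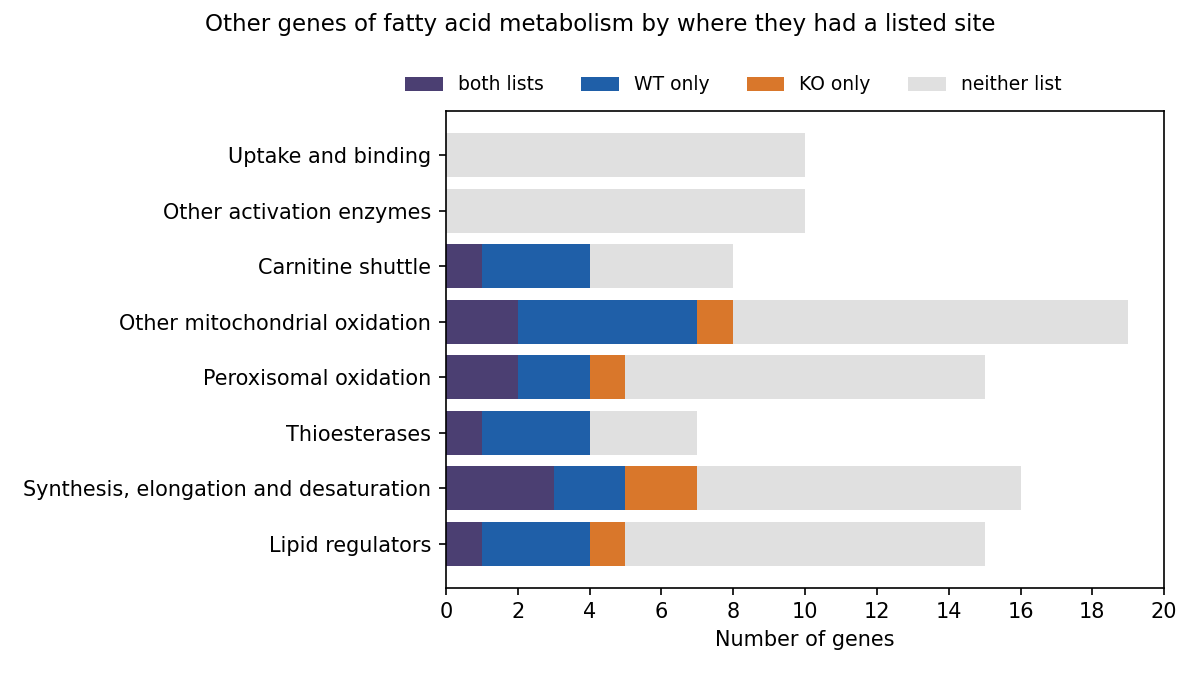
Number of genes in each of the 8 lists of fatty acid metabolism by whether they had a site in both lists, in WT only, in KO only or in neither. The lists for uptake and binding and for other activation enzymes had no listed gene (0 of 10 each), and other mitochondrial oxidation had the most genes listed in WT only (5 of 19). Of all annotated protein-coding genes 22.6% were in the WT list and 12.3% in the KO list.

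The 10 genes of the uptake and binding list, including the transporter gene Cd36, and the 10 of the list of other activation enzymes were named in neither site list. Most annotated protein-coding genes were also unlisted, with 22.6% in the WT list and 12.3% in the KO list. Dbi, the acyl-CoA binding protein gene, is in none of the 8 lists and had 1 WT site (fold enrichment 8.37) and no KO site. Of 8 genes around the carnitine shuttle, Acacb, whose product makes the malonyl-CoA that inhibits CPT1, was listed in both, with 5 WT sites (best fold enrichment 17.40) and 2 KO sites (best 6.67), none overlapping. Acaca, for the cytosolic enzyme of the same reaction (best 11.42), Crot, a peroxisomal carnitine acyltransferase gene (9.97), and Slc25a20, the carnitine carrier gene (6.32), were listed in WT only. Among other mitochondrial oxidation genes, Hadha, a trifunctional protein subunit gene, had 6 WT sites and 1 KO site that matched 1 of them. Decr1, for a reductase that handles unsaturated chains, had 1 site in each list without overlap. Acadsb (12.00), Hadhb (10.22) and Etfa (10.08), for a branched-chain dehydrogenase, the other trifunctional subunit and an electron carrier subunit, had the highest fold enrichment of the 5 genes listed in WT only. Etfdh, for the enzyme that takes electrons from that carrier, was listed in KO only (7.10).

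In the peroxisomal list Abcd3, a fatty acyl transporter gene, shared an interval between genotypes. Hsd17b4 (6 sites, best 9.67) and Decr2 (9.54) were listed in WT only, and Acaa1b (8.32), which has a close copy that can share reads, in KO only. The thioesterase gene Acot7 had 2 WT and 2 KO sites at the same 2 intervals, while Acot13 (10.75), Acot1 (7.01, also with close copies) and Acot11 (6.32) were listed in WT only. For synthesis, elongation and desaturation, the desaturase gene Fads2 and the mitochondrial synthesis gene Mcat shared sites between genotypes and the desaturase gene Fads1 did not, although it was listed in both. Elovl1 (6.83) and Hsd17b12 (6.79) were listed in WT only, and the elongase gene Elovl7 (6.85) and the citrate lyase gene Acly (5.69) in KO only. Of the regulators, the nuclear receptor gene Rxra shared 1 interval, Srebf2 (10), Prkaa1 (9.04) and Mlycd (6.04) were listed in WT only, and Prkaa2, for the other catalytic subunit of AMP-activated kinase, in KO only (6.36), at a site that began at the gene start. No site was listed for Ppara, Pparg or Ppargc1a in either genotype.

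The tissue could not be checked by transcript level, because the lists hold none. Sites were listed for 3 of 7 pancreatic epithelium markers in WT and 1 in KO, and for 3 of 4 endocrine markers in WT and 2 in KO. They were listed for 4 of 5 mesenchyme markers in each genotype, and for 3 of 3 liver markers in WT and 1 in KO. Of 21900 annotated protein-coding genes 22.6% were named in the WT list and 12.3% in the KO list. Of the epithelium markers Pdx1, Ptf1a, Cpa1 and Gata4, and of the endocrine markers Neurog3, had no listed site in either genotype. Liver also expresses the enzymes described here, and its part in their sites was not tested. A bulk list cannot tell fewer cells of a type from fewer marks per cell. The deletion of Mettl3 could not be checked either, because site lists without read counts do not show it. Mettl3 had no listed site.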

How the data were processed

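Site lists of 1 WT and 1 KO pancreas sample pair (MeRIP and input) were used. The submitters' processing notes name cutadapt 1.9.3, HISAT2 2.0.4 and the build mm10. Per the file headers, the deposited score is 10 times the negative log10 of the caller's p, and the deposited fold enrichment is a ratio. The deposited false discovery rate reaches 100 and was taken as percent. The peak caller's version and the step from numbered peaks to listed sites are not stated in the labels or headers. MeRIP is assumed to have been compared with input of the same genotype.

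File starts were read as 0-based, since 449 WT sites then begin at an annotated gene start against 36 otherwise, and are printed 1-based. Genes were matched to a RefSeq table of GRCm38.p6 by gene identifier (10 of 10) and given a strand from its gene start table (9 of 10). All 1864 overlapping windows of opposite strands in that table were reverse complements. Sites were called overlapping at 1 bp or more, with code tested on simulated data (Python 3.11.15, pandas 2.3.3). The members and lists were chosen with earlier results of these data known. In each list of fatty acid metabolism, every gene listed in both and up to 3 genes listed in WT only or KO only, by highest fold enrichment, were named. Regulators without a site and Cd36, Dbi and the genes of the annotated set were named after their values were seen. A gene that this rule selects is not reported here. Other filters, list lengths, gene names and overlap rules were tried.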

Additional observations from a re-analysis of the deposited data

How the results depend on the processing

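With the WT list shortened to the 3937 sites of highest score, to match the KO list, 6 member genes were listed in both genotypes, 6 member WT sites were left, and 6 genes of the fatty acid lists were listed in both; fewer WT sites enter by construction. The 6 member genes were Acsl4, Acsl5, Cpt2, Acadl, Hadh and Acaa2. Of all genes in the shortened WT list 44.9% were also in the KO list. Under the other alternatives (false discovery rate of at most 50%, fold enrichment of at least 5, the upper 75% of each list by score, updated gene names) the counts above stayed within 1.5 times those reported. Member genes listed in both fell to 8 under the score filter, without Acsl3 and Acadm, and stayed at 10 under the others. Over all genes the share of WT genes also in KO was 30.2% with the false discovery rate filter. It was 32% with the fold enrichment filter and 33.7% with the score filter. The filter on the false discovery rate removed the 2 KO sites of highest score among the members, in Acaa2 and Acsl3. Overlapping pairs in the 10 genes numbered 2 or 3 under all 8 alternatives, including overlap of at least 50% of the shorter site, identical ends, and a distance of up to 200 bp. These last 3 rules could not change the count. The 3 pairs have identical ends, and the closest sites without overlap were 1656 bp apart. The pair of Acaa2 was lost under the fold enrichment filter, and that of Hadh with the shortened WT list. No paired analysis was possible because each genotype has 1 library of each kind. Depth is unknown, so whether it limits the KO list was not tested.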

Other observations

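Other energy pathways in the authors' annotation, examined after the data had been seen, are given here by counts, and the difference between them was not tested. Of 44 oxidative phosphorylation genes in the WT list 12 were also in the KO list, 27.3%, where the share over all genes was 37.9%. For the citrate cycle it was 8 of 16, for glycolysis and gluconeogenesis 7 of 17, and for the breakdown of valine, leucine and isoleucine, without the members, 10 of 21. Citrate cycle genes listed in both included Cs, Idh1 and Mdh1, each with an overlapping pair, and Idh3a and Fh1, each with 1 WT site, 2 KO sites and no overlap. Dlat (best WT fold enrichment 15.81), Dld and Dlst, which encode subunits of the mitochondrial 2-oxoacid dehydrogenases, each had 3 WT sites and no KO site, whereas Bckdhb, for a subunit of the branched-chain enzyme of that family, was listed in both with an overlapping pair (best fold enrichment 15.57 in WT, 10.84 in KO). These examples were picked with their values known. The lipoprotein lipase gene Lpl was listed in KO only (7.86).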
